A study of Homo sapiens with 4 samples.

Results

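Pseudogenes aside, the histone cluster genes encode the core and linker histones whose output rises with DNA replication. They were taken as every row of the 4 deposited gene tables whose symbol starts with HIST1H, HIST2H, HIST3H or HIST4H and that held 10 or more counts in at least 1 library, which left 31 genes of 73 such symbols, among 15204 genes that met the same limit and 26475 symbols in all. RNA-seq had been run on mammospheres, the spheres that breast tumour cells form in suspension, of the established line MDA-MB-468, a triple-negative breast cancer of basal-like type. All cells came from pools infected with Cas9 and a tet-on guide vector and sorted for both, so that no group is a single clone. The CTL library is from control-vector cells without treatment and CTL+dox from the same pool with doxycycline; gRNA2 is the pool with guide 2 to TCOF1 (treacle, a nucleolar factor for rRNA transcription) without treatment, and gRNA2+dox the same pool with doxycycline to induce the knockout. The labels give CTL, CTL+dox and gRNA2 as wild type and gRNA2+dox as a knockout of TCOF1. Each condition was 1 library made from several pooled plates, and the study states that it had no biological replicates. No p-value is therefore given, and every interval below is a 95% interval of the counting error only; differences between cultures of one condition are not covered by it.

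Replication-dependent histone genes lie in clusters, lack introns in their main form, and are transcribed in S phase from the histone locus body under NPAT. Their mRNAs normally end in a conserved stem-loop, bound by SLBP, in place of a poly(A) tail, and are degraded when DNA synthesis stops. Some members also have longer, polyadenylated transcripts that use a downstream signal, a form known from differentiated and non-dividing cells. A library made from poly(A) RNA and one made from rRNA-depleted RNA therefore see very different parts of this family; which of these was made is not given in the sources used here.

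The stem-loop is shown because mRNAs that end at it lack a poly(A) tail, which bears on the kind of library that can hold them. It was searched for as a 16-base element with a stem of 6 base pairs and a loop of 4 bases, G to U pairs allowed, in the GENCODE transcripts of each gene. It was found in 27 of the 28 members that have a transcript there, and in 62 of 66 histone cluster symbols. The capitals below mark the stem-loop, with up to 5 transcript bases on each side, written with T for U.
HIST1H2BK: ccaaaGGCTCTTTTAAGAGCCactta
HIST1H2AC: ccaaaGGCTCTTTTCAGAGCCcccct
HIST1H2AK: aaaaaGGTTCTTTTCAGAGCCaccta
HIST1H4H: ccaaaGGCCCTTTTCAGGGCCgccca
HIST1H4K: caaaaGGCCCTTTTTAGGGCCccca
The form in HIST1H2AC was the most frequent, in 38 symbols and 16 members of types H1, H2A, H2B and H3, while the form in HIST1H2BK was in 9 symbols and 6 members. The form in HIST1H4H was in 8 symbols and that in HIST1H4K in 4, all of them H4 genes. The forms in HIST1H2AK, in HIST1H2AG and in HIST2H2AC, which is not a member, were each found in 1 symbol only. The 1 member without a match was HIST1H3E, an H3 gene. A longer form, meaning a RefSeq span or a GENCODE transcript of more than 900 bases, was annotated for 13 members and for none of the other 18.

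Promoters of 300 bases, from 250 before to 50 after each start (RefSeq, GRCh38.p14), were available for 29 of the 31 members. They are shown for the gene with the most counts, for the H2B gene that was called lower in both comparisons of the knockout library, and for the H4 gene with the most counts. Capitals mark TATAAA (the TATA box), CCAAT (the site of NF-Y) and ATTTGCAT (the octamer, read by OCT1 at H2B genes), on either strand.
HIST1H2BK: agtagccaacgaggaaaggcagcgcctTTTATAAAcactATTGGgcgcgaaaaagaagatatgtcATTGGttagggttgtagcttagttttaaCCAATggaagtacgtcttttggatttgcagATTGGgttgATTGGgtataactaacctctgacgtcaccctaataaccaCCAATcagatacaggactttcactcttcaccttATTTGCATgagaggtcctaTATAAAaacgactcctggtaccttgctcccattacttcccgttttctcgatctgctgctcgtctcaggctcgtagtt
HIST2H2BE: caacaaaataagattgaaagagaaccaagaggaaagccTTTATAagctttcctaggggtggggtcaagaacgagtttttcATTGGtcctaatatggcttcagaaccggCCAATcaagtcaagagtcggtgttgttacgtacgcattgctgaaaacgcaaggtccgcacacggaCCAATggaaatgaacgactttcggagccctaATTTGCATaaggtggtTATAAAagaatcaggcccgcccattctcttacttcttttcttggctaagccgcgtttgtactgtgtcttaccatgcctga
HIST1H4H: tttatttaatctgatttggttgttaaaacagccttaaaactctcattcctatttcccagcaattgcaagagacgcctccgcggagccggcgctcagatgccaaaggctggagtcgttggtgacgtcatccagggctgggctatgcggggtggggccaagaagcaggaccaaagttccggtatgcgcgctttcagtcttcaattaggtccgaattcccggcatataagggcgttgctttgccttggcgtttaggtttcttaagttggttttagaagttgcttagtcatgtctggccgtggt
These windows lie at chr6:27146809-27147108, chr1:149886633-149886932 and chr6:26285485-26285784, all on the minus strand. CCAAT was found in 26 of 29 members (89.7%) against 35.7% of 27305 promoters, and in all members of types H1, H2A, H2B and H3 that had a promoter but in 0 of 3 H4 members. TATAAA was found in 17 members (58.6%) against 12% of all promoters. ATTTGCAT was found in 16 members (55.2%) against 1.8% of all promoters, among them 9 of 11 H2B and 6 of 9 H2A members. Head-to-head H2A and H2B genes share a part of their windows, so these are not independent matches, and a match is a description of the letters only.

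TCOF1 itself held 1019 counts (50.4 CPM, counts scaled to a library of 1000000) in CTL and 754 (33.5 CPM) in CTL+dox, against 1318 (50.1 CPM) in gRNA2 and 437 (20.02 CPM) in gRNA2+dox. It was lowest in the library labelled as the knockout, and CTL+dox lay between that library and both untreated ones. Counts on genes ranged from 19960644 to 26322847 per library, and 3 counts, the floor used here, correspond to 0.114 to 0.148 CPM. All 12 epithelial markers listed for this basal-like line were measured (24144 to 26632 CPM in sum). They include EPCAM, CDH1, KRT8 and KRT18, so the list is not particular to basal cells. ESR1 held 4 to 13 counts and PGR 0 to 7. With ERBB2 added, the 3 genes held 284 to 391 counts in sum. Of markers of other cell types, PTPRC and CD3E held 1 to 3 counts, CDH5 was at 0 in every library, and COL3A1, DCN and LUM held 0 to 3, while CD68 (1905 to 3036 counts), COL1A1 (358 to 543) and KDR (257 to 337) were measured. The limit of 10 counts was met by 2 of 6 leukocyte, 2 of 6 fibroblast and 3 of 4 endothelial markers, not all of them named here. In sum, the 6 leukocyte markers held 2149 to 3318 counts. Reads that mapped to several places, which the authors' gene counting leaves out and which matter for a family of near-copies, made up 4.85% of reads in CTL and 4.02% in CTL+dox, against 4.57% in gRNA2 and 3.39% in gRNA2+dox, and their part in the results below was not tested.

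The histone cluster genes gave little RNA in these libraries, and a few genes gave nearly all of it. The 31 members held 5115 counts in CTL and 5812 in CTL+dox, against 5819 in gRNA2 and 5001 in gRNA2+dox. Their median over members of the mean count was 27.5, against 415 over all 15204 tested genes, and only 7 members reached 100 counts in any library. As many as 24 members had 10 or more counts in each library; the other 7 passed the limit in some libraries only, and for these a difference between libraries is partly a consequence of the limit.

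**Figure D1:**
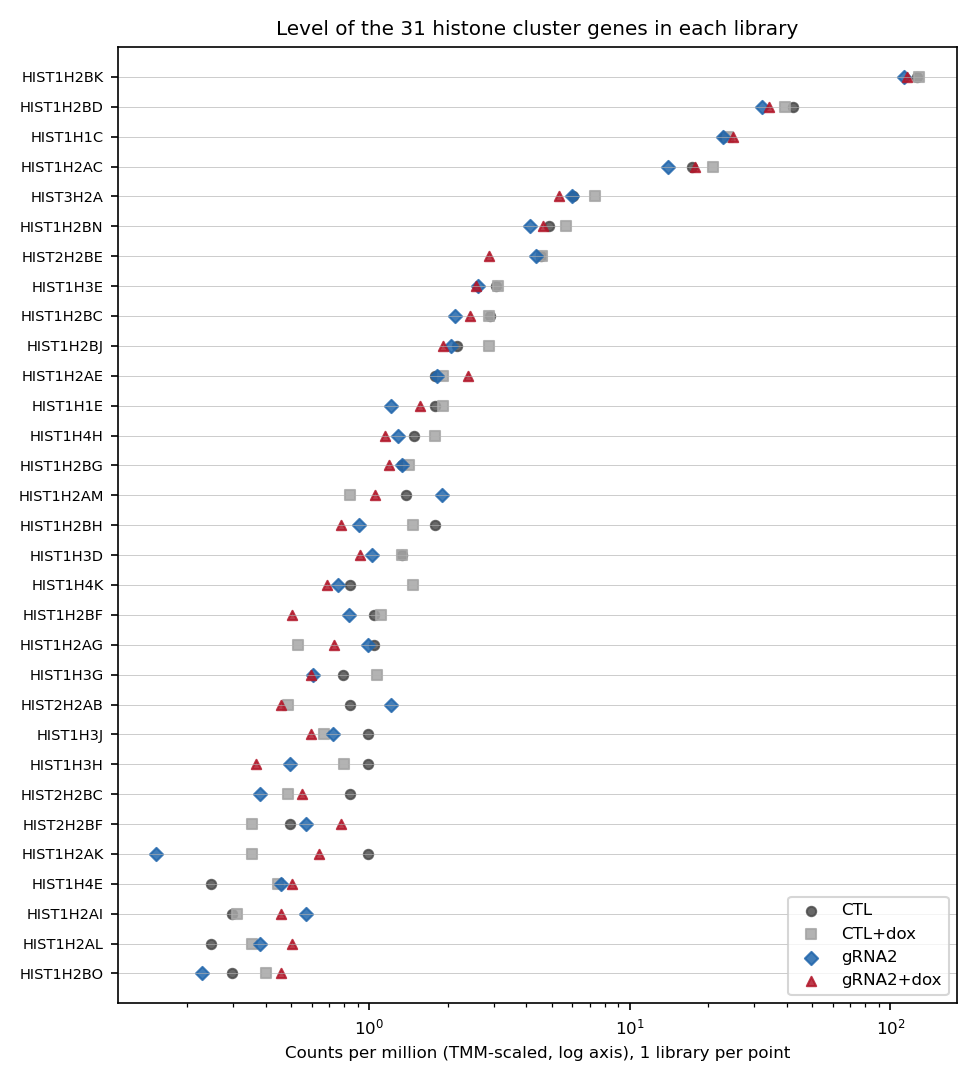
Level of each of the 31 members (rows, ordered by mean level) in CPM on a log axis, with 1 point per library. HIST1H2BK stands at 113 to 129 CPM and most members lie under 3 CPM, where the points of the 4 libraries spread widely.

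HIST1H2BK, one of the replication-dependent H2B genes, was by far the most abundant, with 2548 counts in CTL and 2892 in CTL+dox, against 2973 in gRNA2 and 2523 in gRNA2+dox (126, 129, 113 and 116 CPM). It alone gave 49.8 to 51.1% of the members' counts. The second gene, HIST1H2BD, also an H2B gene, held 855, 883, 849 and 748 counts in the same order. HIST1H1C, the linker histone H1.2, held 464, 533, 599 and 541, and HIST1H2AC, an H2A gene, 349, 469, 367 and 389. These 4 genes were followed at a distance by HIST3H2A (122, 165, 158 and 117 counts), HIST1H2BN (99, 128, 109 and 101) and HIST2H2BE (92, 103, 115 and 63). Per kb of exon, by GENCODE exon lengths that may differ from those used by the authors, the mean level was 244 CPM per kb for HIST1H2BK, 43.0 for HIST1H2BD, 32.2 for HIST1H1C and 10.5 for HIST1H2AC. These lengths leave out longer forms outside the GENCODE exons, such as the RefSeq span of 8566 bases of HIST1H2BK. The RefSeq span of HIST1H2BK holds H4C9 (HIST1H4I in the tables) and that of HIST1H2BD holds H2BC6-AS1 and LARP1P1; the counts used carry no strand, so reads of such overlapping genes cannot be told apart by strand.

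By type, the 12 H2B members took 72.4 to 74.6% of the members' counts, the 9 H2A members 11.8 to 12.8%, the 2 H1 members 9.78 to 11.5%, the 5 H3 members 2.20 to 2.83% and the 3 H4 members 1.02 to 1.43%. H3 and H4, which a nucleosome holds in the same number as H2A and H2B, thus gave few of these counts. The 12 H2B members include HIST2H2BC (17, 11, 10 and 12 counts), which RefSeq lists as a transcribed pseudogene whose span overlaps H4C15. The most abundant H3 gene, HIST1H3E, held 62, 70, 69 and 56 counts, and the most abundant H4 gene, HIST1H4H, 30, 40, 34 and 25. By cluster, HIST1 on chromosome 6 had 26 members and 94.3 to 95.6% of the counts, HIST2 on chromosome 1 had 4 members, HIST3 had 1 and HIST4 had none. The 13 members with a longer form held 83.2 to 84.9% of the counts and the 18 without one 15.1 to 16.8%. This split was chosen after the levels were seen. Most counts of the 13 came from HIST1H2BK, which is among them by its RefSeq span only. Its GENCODE transcript has 495 bases, and the counts do not show which form was read.

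The 42 symbols under the limit held 48 to 68 counts per library in sum, and 12 of them were at 0 in every library. Just inside the limit lay HIST1H2BO with 6, 9, 6 and 10 counts, an H2B gene, and just outside it HIST1H4B with 3, 0, 8 and 1, an H4 gene. Among the 12 at 0 were HIST2H2AA3 and HIST2H2AA4, HIST2H4A and HIST2H4B, and HIST2H3A and HIST2H3C, pairs of nearly identical duplicated copies to which few reads can map uniquely. A listed 0 for these genes is not a measurement of absence. The same uncertainty touches the other members in the coding parts that they share.

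Many H2A and H2B genes are placed head to head with a common promoter region, and 13 such pairs with starts 194 to 979 bases apart were found, of which 12 paired an H2A with an H2B gene. In only 5 pairs were both genes members. The counts of the partners were often far apart: over the 4 libraries HIST1H2BK held 10936 counts and its partner HIST1H2AH 7, HIST2H2BE held 373 and HIST2H2AC 7, and HIST3H2A held 562 and HIST3H2BB 16. HIST1H2AC with 1574 counts and HIST1H2BC with 233 were closer, and HIST1H2AE with 179 and HIST1H2BG with 120 closer still. Partners were not compared with unpaired genes.

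The question of the study was what loss of TCOF1 changes in mammospheres, and gRNA2+dox was set against gRNA2 (the same pool without doxycycline) and against CTL+dox (the control pool with doxycycline); CTL+dox against CTL sets the control pool with doxycycline against that without, and gRNA2 against CTL the untreated pools against each other. Each is 1 library against 1, so treatment or pool cannot be told apart from culture and library preparation, and the comparisons share libraries. The call, lower or higher, needed a ratio past 1.5-fold, and an interval of the log2 ratio that left out 0. In bulk RNA, fewer cells with histone mRNA and less histone mRNA per cell cannot be told apart.

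The summed level was lower in both gRNA2 libraries than in both CTL libraries, with or without doxycycline. It was 253 CPM (interval 246 to 260) in CTL and 258 (252 to 265) in CTL+dox, but 221 (215 to 227) in gRNA2 and 229 (223 to 235) in gRNA2+dox. The intervals of the 2 pools did not overlap, and the untreated gRNA2 library, labelled wild type, was the lowest. The log2 ratio of the sum was −0.19 (−0.25 to −0.14) for gRNA2 against CTL and −0.17 (−0.23 to −0.12) for gRNA2+dox against CTL+dox. For gRNA2+dox against gRNA2 it was 0.05 (−0.00 to 0.11) and for CTL+dox against CTL 0.03 (−0.02 to 0.09). The first of these left out 0 for the 12 members with 50 or more counts in a library, at 0.060 (0.003 to 0.116), and for the 26 HIST1 members, at 0.07 (0.02 to 0.13), and was −0.084 (−0.23 to 0.06) without the 5 members with the most counts. The difference of the doxycycline log2 ratios, gRNA2 cells minus CTL cells, was 0.02 (−0.06 to 0.10) for the sum, so a change of the whole family particular to induction of the guide was not seen beyond that interval. Without HIST1H2BK the sums gave −0.23 (−0.31 to −0.15) for gRNA2 against CTL and 0.07 (−0.01 to 0.15) for gRNA2+dox against gRNA2.

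Gene by gene, 24 of 31 members had a log2 ratio below 0 in gRNA2 against CTL, against 50.8% of all tested genes, with a median of −0.20; that median was −0.084 with no count limit (61 genes) and −0.120 with a limit of 50 counts (12 genes). In gRNA2+dox against CTL+dox 20 were below 0, against 50.1% of all genes, with a median of −0.23, whereas in gRNA2+dox against gRNA2 it was 17, against 50.4%, with a median of −0.03. For CTL+dox against CTL 12 were below 0, against 49.8%, with a median of 0.05. The median over all tested genes was within 0.01 of 0 in each comparison. The lowest library was gRNA2 for 10 members (24.7% of all tested genes) and gRNA2+dox for 14 (25.7%), and the highest was CTL for 9 (21.2%) and CTL+dox for 13 (29.6%). These counts describe the members, which share the libraries and in part their reads, and nothing is read from them about other families.

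Few members passed the call. In gRNA2+dox against gRNA2, 3 members (9.68%) were called lower, where 2.2% of all tested genes were, and 1 (3.23%) higher, where 1.82% were. In gRNA2+dox against CTL+dox, 4 (12.9%) were called lower and 0 higher, where 4.2% and 2.56% of all genes were. In CTL+dox against CTL, 1 (3.23%) was called lower and 0 higher, where 1.75% and 1.39% of all genes were. In gRNA2 against CTL, 2 (6.45%) were called lower and 0 higher, where 2.75% and 1.33% were. Members had a median of 27.5 counts against 415 for all tested genes. Neither these shares nor those by the interval alone therefore compare genes of like depth. With no fold limit, the interval alone left out 0 on the lower side for 3, 9, 1 and 5 members in this order, where 14.9, 19.6, 15.6 and 15.1% of all genes did. On the higher side it did so for 2, 0, 1 and 0 members, where 15.8, 20.6, 14.8 and 15.7% of all genes did. The called members were 7 genes in all, 1 of them in 3 comparisons and 2 of them in 2 comparisons, and each held few counts beside HIST1H2BK.

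H1 linker histones bind the DNA between nucleosomes. The level of the abundant HIST1H1C was close between the libraries, at 22.9 CPM in CTL and 23.7 in CTL+dox, against 22.7 in gRNA2 and 24.8 in gRNA2+dox. The log2 ratio was −0.01 (−0.19 to 0.17) for gRNA2 against CTL and 0.12 (−0.05 to 0.29) for gRNA2+dox against gRNA2. HIST1H1E, the linker histone H1.4, held 36, 43, 32 and 34 counts, and its log2 ratio of −0.54 for gRNA2 against CTL had an interval of −1.28 to 0.18. For neither gene did any of the 4 comparisons leave out 0.

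Among H2A genes, which form a dimer with H2B, HIST1H2AC was the one with enough counts for narrow intervals. It stood at 17.2 CPM in CTL and 20.8 in CTL+dox, against 13.9 in gRNA2 and 17.8 in gRNA2+dox. Both libraries with doxycycline were above their untreated pool, by a log2 ratio of 0.27 (0.07 to 0.48) in CTL cells and of 0.35 (0.14 to 0.56) in gRNA2 cells, and both gRNA2 libraries were below the CTL library of the same treatment, by −0.31 (−0.52 to −0.09) without and −0.23 (−0.42 to −0.03) with doxycycline. None of these passed 1.5-fold, and the difference of the doxycycline ratios was 0.08 (−0.21 to 0.37). HIST3H2A, the H2A gene of the HIST3 cluster, was 7.33 CPM in CTL+dox and between 5.36 and 6.03 in the other libraries, with a log2 ratio of −0.45 (−0.81 to −0.10) for gRNA2+dox against CTL+dox.

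Another 3 H2A genes, all with few counts, were called, each in its own pattern. HIST1H2AM held 28 counts in CTL and 19 in CTL+dox, against 50 in gRNA2 and 23 in gRNA2+dox, and was called lower in gRNA2+dox against gRNA2 with a log2 ratio of −0.84 (−1.63 to −0.11). HIST2H2AB held 17, 11, 32 and 10 counts and was called lower in the same comparison, with −1.37 (−2.60 to −0.35). In both, gRNA2 was the library that stood high, and CTL+dox was also below CTL, at −0.70 (−1.63 to 0.18) for HIST1H2AM and −0.75 (−2.02 to 0.40) for HIST2H2AB, so their differences of the doxycycline ratios were −0.14 (−1.24 to 0.96) and −0.63 (−2.13 to 0.87).

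HIST1H2AK held 20 counts in CTL and 8 in CTL+dox, against 4 in gRNA2 and 14 in gRNA2+dox. Doxycycline went with a lower count in CTL cells and a higher one in gRNA2 cells: the log2 ratio was −1.42 (−2.87 to −0.23) for CTL+dox against CTL, called lower, and 1.93 (0.41 to 4.14) for gRNA2+dox against gRNA2, called higher. It was also called lower in gRNA2 against CTL, at −2.54 (−4.71 to −1.12). It passed the count limit only through CTL and gRNA2+dox. Its partner HIST1H2BN, whose start lies 194 bases away, held 99, 128, 109 and 101 counts, with no comparison leaving out 0.

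The H2B genes, with most of the counts, showed the same order of the pools as the sum. Of the 12, the pseudogene HIST2H2BC included, 11 had a log2 ratio below 0 in gRNA2 against CTL and 9 in gRNA2+dox against CTL+dox. The ratios of the sum of the 12 were −0.22 (−0.28 to −0.15) and −0.19 (−0.25 to −0.12). For HIST1H2BK these ratios were −0.16 (−0.23 to −0.08) and −0.15 (−0.23 to −0.08), and its ratio with against without doxycycline was 0.03 (−0.05 to 0.11) in CTL cells and 0.03 (−0.04 to 0.11) in gRNA2 cells. HIST1H2BD stood at 42.3 CPM in CTL and 39.3 in CTL+dox, against 32.2 in gRNA2 and 34.3 in gRNA2+dox. The log2 ratio was −0.39 (−0.53 to −0.25) for gRNA2 against CTL and −0.20 (−0.34 to −0.05) for gRNA2+dox against CTL+dox, neither past 1.5-fold.

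HIST2H2BE, an H2B gene of the HIST2 cluster with a long annotated transcript, showed a different order of the libraries. It held 92 counts in CTL and 103 in CTL+dox, against 115 in gRNA2 and 63 in gRNA2+dox (4.55, 4.58, 4.37 and 2.89 CPM), so that gRNA2+dox stood below the other libraries, which lay close together. It was called lower against gRNA2, at a log2 ratio of −0.59 (−1.06 to −0.14), and against CTL+dox, at −0.66 (−1.14 to −0.20), while it was 0.01 (−0.41 to 0.43) for CTL+dox against CTL and −0.06 (−0.47 to 0.35) for gRNA2 against CTL. Its difference of the doxycycline ratios was −0.61 (−1.21 to −0.01). Only HIST2H2BE and HIST1H2AK, 2 of 31 members, had an interval of this difference that left out 0, against 26.7% of all tested genes, most of which have more counts.

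The other H2B genes that were called held few counts. HIST1H2BH held 36, 33, 24 and 17 counts and was called lower in gRNA2 against CTL, at −0.95 (−1.77 to −0.18), and in gRNA2+dox against CTL+dox, at −0.90 (−1.85 to −0.03), with both CTL libraries above both gRNA2 libraries. HIST1H2BF held 21, 25, 22 and 11 counts and was called lower in gRNA2+dox against CTL+dox only, at −1.11 (−2.31 to −0.07); against gRNA2 it was −0.71 (−1.92 to 0.38). HIST1H2BC, with 59, 65, 56 and 53 counts, was called in no comparison. HIST1H2BJ, with 44, 65, 54 and 42 counts, fell just short of 1.5-fold in gRNA2+dox against CTL+dox, at −0.58 (−1.18 to −0.01), and would be called lower there with scaling to total counts, at −0.605.

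H3 and H4 form the tetramer at the centre of the nucleosome. All 5 H3 members had a log2 ratio below 0 in gRNA2 against CTL, in gRNA2+dox against CTL+dox and in gRNA2+dox against gRNA2, but none was called. Their sum was 145 counts in CTL and 157 in CTL+dox, against 144 in gRNA2 and 110 in gRNA2+dox, with a log2 ratio of −0.39 (−0.73 to −0.05) for gRNA2 against CTL and −0.47 (−0.84 to −0.11) for gRNA2+dox against CTL+dox, and of −0.12 (−0.49 to 0.25) for gRNA2+dox against gRNA2. HIST1H3H, the H3 member with the fewest counts, held 20, 18, 13 and 8.

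The 3 H4 members held 52, 83, 66 and 51 counts in sum, and CTL+dox was the library that stood apart: its sum was above CTL by 0.52 (0.00 to 1.05) and gRNA2+dox was below it by a log2 ratio of −0.65 (−1.19 to −0.14). HIST1H4K, with 17, 33, 20 and 15 counts, was the H4 gene called lower in gRNA2+dox against CTL+dox, at −1.07 (−2.08 to −0.17). Against gRNA2 its log2 ratio was −0.14 (−1.21 to 0.89).

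Members with a longer annotated form and those without one gave different sums. For gRNA2 against CTL, 12 of the 13 with a longer form were below 0 and the log2 ratio of their sum was −0.22 (−0.27 to −0.16), while 12 of the 18 without one were below 0 and their sum gave −0.08 (−0.22 to 0.05). For gRNA2+dox against CTL+dox the counts were 12 of 13 and 8 of 18, and the sums −0.20 (−0.26 to −0.14) and −0.02 (−0.16 to 0.12). The counts do not separate the forms of a gene, the split was chosen after values were seen, and the difference between the groups was not tested. HIST1H2BK, in the longer-form group by its RefSeq span only, held most of that group's counts.

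The list of genes that make histone mRNA held 28 genes for histone transcription and 3′ end processing, such as NPAT, SLBP, CASP8AP2 (FLASH), the U7 snRNP proteins LSM10 and LSM11, and the exonuclease ERI1; all 28 were tested, and 0 were called lower or higher in any of the 4 comparisons, where 1.33 to 4.2% of all tested genes were called in a given direction, so that few or no calls are the usual count for a list of this size. Their median log2 ratio was −0.01 for gRNA2+dox against gRNA2, −0.03 against CTL+dox, 0.01 for CTL+dox against CTL and −0.06 for gRNA2 against CTL. SLBP, which binds the stem-loop, held 3427 counts in CTL and 3850 in CTL+dox, against 3698 in gRNA2 and 3534 in gRNA2+dox, with a log2 ratio of −0.27 (−0.34 to −0.20) for gRNA2 against CTL and 0.20 (0.14 to 0.27) for gRNA2+dox against gRNA2. NPAT held 860, 942, 1196 and 1015 counts, with 0.10 (−0.03 to 0.22) and 0.03 (−0.09 to 0.16) in the same comparisons. For gRNA2+dox against CTL+dox it was 0.15 (0.02 to 0.28), where the histone sum gave −0.17. NPAT thus did not move with the summed histone level.

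Of 26 histone chaperones and assembly factors 25 were tested, with medians of −0.05, −0.06, −0.07 and −0.05 in the same order of comparisons. UBN2, a subunit of the HIRA complex that deposits H3.3, was called higher in gRNA2+dox against CTL+dox, at 0.63 (0.47 to 0.79), with 525, 522, 745 and 783 counts. HJURP, the chaperone of the centromeric histone CENPA, was called lower there, at −0.84 (−1.13 to −0.55), with 239, 284, 246 and 154 counts. No other gene of this list was called in any comparison, where 1.33 to 4.2% of all tested genes were called in a given direction.

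The replication-independent histones are mostly, though not all, made throughout the cell cycle from polyadenylated mRNA. Of 19 such symbols 10 were tested and 0 were called, against the same 1.33 to 4.2% of all tested genes, with medians of 0.03, −0.14, 0.02 and −0.12. Their summed level was 1381 CPM in CTL and 1426 in CTL+dox, against 1285 in gRNA2 and 1361 in gRNA2+dox, more than that of the cluster genes in each library, and gRNA2 was again the lowest; the log2 ratio of the sum was −0.10 (−0.13 to −0.08) for gRNA2 against CTL and −0.07 (−0.09 to −0.05) for gRNA2+dox against CTL+dox. H2AFZ, the variant H2A.Z, held 3505, 4484, 3855 and 3339 counts, with a log2 ratio of −0.38 for gRNA2+dox against CTL+dox. H1FX, the linker histone H1.X, stood out by a log2 ratio of −0.44 for gRNA2 against CTL and 0.47 for gRNA2+dox against gRNA2. H3F3A, an H3.3 gene with near-copies in the genome, was listed at 0 in every library beside 6570 to 8515 counts of H3F3B, and its 0 is not read as a level.

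Genes of the cell cycle moved in part with the histone genes and in part not. The 43 S phase genes had medians of −0.14 for gRNA2+dox against gRNA2, −0.25 against CTL+dox, 0.03 for CTL+dox against CTL and −0.10 for gRNA2 against CTL, and 34, 38, 17 and 37 of them were below 0. Called lower were 1, 3, 0 and 0 of them, where 2.2, 4.2, 1.75 and 2.75% of all tested genes were. None was called higher, where 1.82, 2.56, 1.39 and 1.33% were. RRM2, a subunit of ribonucleotide reductase, was among the 3 called lower, at −0.72. The 54 G2/M genes had medians of −0.21, −0.27, 0.01 and −0.09. Beside the same shares of all tested genes, 4, 15, 2 and 2 of them were called lower and 0, 0, 1 and 0 higher. TOP2A at −0.78 and CDC20 at −0.59 were among the 15. The S phase sum gave a difference of the doxycycline ratios of −0.11 (−0.14 to −0.09), where the histone sum gave 0.02 (−0.06 to 0.10). The S phase list shares 3 genes with that for histone transcription and processing and 2 with the chaperones. The G2/M list shares 2 genes with the chaperones and 1 with the replication-independent histones. In gRNA2 cells with doxycycline the S phase genes lay lower and the sum of the histone cluster genes did not, while between the untreated pools both lay lower in gRNA2. The histone sum rests mostly on the 6 most abundant members, whose own sum gave 0.08 (0.02 to 0.13) for gRNA2+dox against gRNA2. The sum of the other 25 members gave −0.12 (−0.28 to 0.04) there, with a difference of the doxycycline ratios of −0.10 (−0.32 to 0.12). The part of the cell cycle in the histone values was not tested.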

How the data were processed

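Per the labels and the study's methods, total RNA was taken with TRIzol, reads were trimmed with fastp and aligned with STAR to hg38, and the deposited values are STAR's raw counts per gene, of uniquely mapped reads; the column without strand was used. Versions, annotation and library selection are not given in the sources used here. Log2 ratios used edgeR 4.0.16 TMM scaling and a prior count of 0.5. Their intervals follow from the exact Clopper-Pearson limits on the split of reads between both libraries, and those of levels are exact Poisson intervals. Differences of the doxycycline ratios were taken from the counts without that prior, with an approximate interval from Poisson error. For genes with few counts they therefore depart somewhat from the printed ratios. The intervals of the ratios and of their differences were tested on simulated counts with Poisson error only. The spread between cultures was not part of that test. With 1 library per condition, no model with replicates was fitted. Named genes were called members or called list genes, the 10 most abundant members, the leading member of each type and cluster, those beside the limit, and TCOF1. Members and lists were chosen with earlier results of these data known, as were some further genes named as examples. Symbols were matched to RefSeq GRCh38.p14 (72 of 73) and stem-loops read from GENCODE transcripts. DESeq2 1.42.0 size factors, total counts, count limits, prior counts and call rules were alternatives.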

Additional observations from a re-analysis of the deposited data

Results flagged for a closer look

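For 2 members the doxycycline effect differed between the gRNA2 and the CTL pool by an interval that left out 0, as it did for 26.7% of all tested genes. For HIST2H2BE the difference of the log2 ratios, gRNA2 cells minus CTL cells, was −0.61, from 92 and 103 counts in CTL cells and 115 and 63 in gRNA2 cells. For HIST1H2AK it was 3.55, with an interval of 1.56 to 5.54, from 20 and 8 counts in CTL cells and 4 and 14 in gRNA2 cells. HIST1H2AK passed the count limit only through CTL and gRNA2+dox, the libraries that raise this difference. Its size is therefore partly a consequence of the limit, and nothing is concluded from it. Both intervals cover counting error only, and no second culture of any condition bears on them.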

How the results depend on the processing

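Each condition had 1 library, so no library could be left out, and the spread between cultures is unknown. No paired analysis across replicates was possible, for the same reason. The log2 ratios of the summed counts for gRNA2 or gRNA2+dox against the CTL pool stayed below 0 with their intervals under DESeq2 size factors, total counts, other count limits and without the leading gene. Without the 5 members with the most counts, the sum gave −0.084 for gRNA2+dox against gRNA2, −0.306 for gRNA2+dox against CTL+dox, and a difference of the doxycycline ratios of −0.094. The median for gRNA2+dox against gRNA2 turned to 0.060 with a limit of 50 counts (12 genes), and that for CTL+dox against CTL to 0.000 with no filter (61 genes). In gRNA2+dox against gRNA2, 1 member was called lower at 2-fold; called higher were 2 with no filter, 0 with the limit of 50 and 2 by the interval alone. In gRNA2+dox against CTL+dox, called lower were 1 with the limit of 50, 2 at 2-fold and 9 by the interval alone. In CTL+dox against CTL, 0 were called lower with the limit of 50, and 1 was called higher both with no filter and by the interval alone. In gRNA2 against CTL, called lower were 0 with the limit of 50, 1 at 2-fold and 5 by the interval alone. By the interval alone, 14.9 to 19.6% of all tested genes were lower and 14.8 to 20.6% higher, depending on the comparison. Shares of all genes at 2-fold and with other count limits were not computed, so those counts have no background to be read against. With a prior count of 5, HIST2H2BE fell short of 1.5-fold against gRNA2, at −0.563. With total counts, the median was −0.053 for gRNA2+dox against gRNA2 and 0.029 for CTL+dox against CTL. For gRNA2 against CTL it was −0.084 with no filter and −0.120 with the limit of 50. HIST1H2BJ was called lower in gRNA2+dox against CTL+dox only with total counts, at −0.605. Of the remaining alternative values, 84 for the whole family stayed within 1.5 times (medians, counts of calls) or within the interval of the sum, and 50 for single members kept direction and call.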
